A study of Mus musculus with 4 samples.

Results

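The immunity-related GTPases (IRGs) are a family of interferon-inducible proteins, and 9 of their genes were looked up by symbol in a table of 36445 genes: Irgm1, Irgm2, Igtp, Ifi47, Tgtp1, Tgtp2, Iigp1, Gm12250 and Gm4951. Each symbol matched 1 row. The genes were chosen by their FPKM in these 4 libraries, with the 5-FU against PBS contrast already known, so their values and their count past the threshold are a description and support nothing. MC38 cells, from a colon tumour line of the mouse, were given PBS or 5-fluorouracil (5-FU, a pyrimidine analogue used as a chemotherapy drug) at 1 mM, both for 24 h. Polyadenylated RNA was sequenced in 2 libraries per group, and whether those 2 were grown as separate cultures is not stated in the labels. A p-value here thus reflects the spread among these libraries alone, and that spread may be technical. All levels are FPKM, fragments scaled to gene length and library size, so they can be set side by side between genes. Genes that share much of their sequence, as Tgtp1 and Tgtp2 do, are an exception.

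In mouse cells, interferon gamma binds its receptor and induces genes whose promoters hold GAS elements. Type I interferons act mainly through a complex that contains IRF9 and binds the interferon-stimulated response element (ISRE). The IRG proteins made in response divide by their first nucleotide-binding loop. Irgm1, Irgm2 and Igtp (also called Irgm3) have a methionine there in place of the usual lysine. These regulators sit on the cell's own membranes and keep the other members inactive. The members with lysine include Ifi47 (Irgd), Tgtp1 and Tgtp2 (Irgb6), Iigp1 (Irga6) and Gm12250 (Irgb10). As effectors they load onto vacuoles that hold parasites or bacteria and damage them. Their loading depends on the ATG8 conjugation machinery, which is shared with autophagy.

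The coding sequences of GENCODE release M21 (build GRCm38) showed this division. The 24 bases that encode the loop are printed 5′ to 3′ for the 7 genes on chromosome 11, because 1 codon, in capitals, separates the regulators from the other members (ATG for methionine, AAG for lysine).
Irgm1: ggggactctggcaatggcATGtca
Irgm2: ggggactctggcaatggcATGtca
Igtp: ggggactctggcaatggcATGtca
Ifi47: gggcagtctgggactggcAAGtcc
Tgtp1: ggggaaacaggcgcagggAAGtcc
Tgtp2: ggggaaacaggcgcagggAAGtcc
Gm12250: ggggagacaggggcagggAAGtcc

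The 3 regulators shared the same 24 bases, and Iigp1 and Gm4951 also had AAG at that codon. The reading frames ran from 406 codons in Gm4951 to 423 in Igtp. Gm12250 is a processed pseudogene in release M21 and a protein-coding gene in RefSeq, and its M21 transcript held an open frame of 417 codons. Tgtp1 and Tgtp2 were identical at 1244 of 1248 aligned coding bases (99.7%), and Iigp1 and Gm4951 were 88% identical. The regulators were 69.4% to 74.5% identical to each other and 60% to 65.2% identical to the other 6 genes.

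In build GRCm38, release M21, 7 of the genes lie on chromosome 11. Irgm1 spans 48861968 to 48871683 on the minus strand, Tgtp1 48985327 to 48994172 and Tgtp2 49057194 to 49064206, both also on the minus strand. Ifi47 follows on the plus strand from 49076587 to 49096974. Gm12250 (58187739 to 58189012), Igtp (58199556 to 58207591) and Irgm2 (58199618 to 58222782) form another group, all on the plus strand. Some exons overlap: Igtp and Irgm2 share 162 exonic bases on the same strand, Ifi47 shares 111 with the olfactory receptor gene Olfr56, and Tgtp1 shares 223 with Gm12185, another IRG family gene. Of all 100-base stretches in the Tgtp1 transcripts, 73.1% also occur in transcripts of Tgtp2 or Gm12185, and of those of Tgtp2, 76.8% occur in Tgtp1 or Gm12185. The split of reads between Tgtp1 and Tgtp2 is therefore uncertain. For the other 7 members the share was between 0% and 5.16%.

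RefSeq promoter windows (build GRCm38.p6) matched 7 of the 9 genes and run from 250 bases before to 50 bases after the transcript start. They were searched on both strands for GAS (TTCNNNGAA) and an ISRE-type repeat (2 copies of GAAA with 2 bases of any kind between them). An ISRE-type match was found in 6 of the 7 windows and a GAS match in 5, all 5 of which held both. Over all 32851 windows of this length, 3.44% held an ISRE-type match, 8.3% a GAS match and 0.454% both. The stretches around the matches are printed 5′ to 3′ on the strand of the gene, with every match in capitals, because 4 of them repeat the same arrangement.
Irgm2, chr11:58214878-58214937, plus strand: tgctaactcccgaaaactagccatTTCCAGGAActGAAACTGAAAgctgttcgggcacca
Igtp, chr11:58199487-58199546, plus strand: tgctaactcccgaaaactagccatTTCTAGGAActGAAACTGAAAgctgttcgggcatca
Tgtp1, chr11:48992299-48992358, minus strand: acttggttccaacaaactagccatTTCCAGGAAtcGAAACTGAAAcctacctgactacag
Tgtp2, chr11:49064258-49064317, minus strand: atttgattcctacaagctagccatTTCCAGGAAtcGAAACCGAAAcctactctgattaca
Irgm1, chr11:48871420-48871485, minus strand: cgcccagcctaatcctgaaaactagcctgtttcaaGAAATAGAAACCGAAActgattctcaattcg
Gm12250, chr11:58183717-58183821, plus strand: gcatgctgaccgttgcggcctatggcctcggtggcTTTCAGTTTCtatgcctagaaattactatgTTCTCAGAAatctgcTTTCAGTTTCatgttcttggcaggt

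In Irgm2, Igtp, Tgtp1 and Tgtp2 the GAS match was followed, after 2 bases, by the ISRE-type match on the same strand. This joint arrangement, TTCNNNGAA and then the repeat 2 bases on, was searched for after it had been seen in these genes. It occurred in 5 of the 32851 windows (0.0152%), those of the 4 genes and of Gm12185, at chr11:48927248-48927268. It began 45 bases before the transcript start in Igtp, 75 in Irgm2, 81 in Tgtp2 and 88 in Tgtp1. The printed bases around it were also alike between Irgm2 and Igtp and between Tgtp1 and Tgtp2. These windows are therefore not to be taken as independent occurrences. Irgm1 held 2 overlapping ISRE-type matches, starting 30 and 24 bases before its start, and no GAS match. Gm12250 held 2 ISRE-type matches on the reverse strand with a GAS match between them. The Ifi47 window held neither motif; it lies at the most upstream of the annotated Ifi47 starts. A match describes letters in the window and does not show that a factor bound there.

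**Figure D1:**
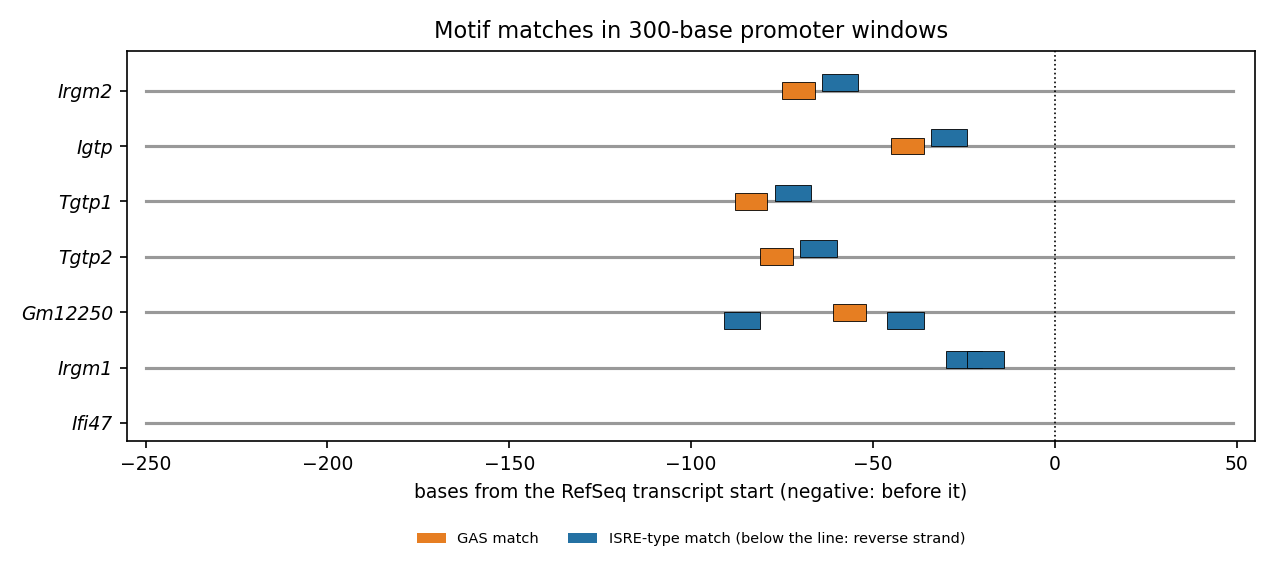
Positions of GAS matches (orange) and ISRE-type matches (blue) in the 300-base RefSeq promoter windows of 7 IRG genes, in bases from the transcript start (dotted line). Irgm2, Igtp, Tgtp1 and Tgtp2 each hold a GAS match followed by an ISRE-type match, and the Ifi47 window holds neither.

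The regulators were the most abundant IRG transcripts in PBS, and they were higher in both 5-FU libraries than in either PBS library. Irgm1 was at 13.44 and 6.70 FPKM in PBS replicates 1 and 2 and at 47.66 and 48.68 FPKM in 5-FU replicates 1 and 2. The 5-FU libraries lay close together, while PBS replicate 1 was 2.01 times PBS replicate 2. Group means were 10.07 ± 4.77 FPKM in PBS and 48.17 ± 0.717 FPKM in 5-FU (SD, n = 2 per group here and below), a ratio of 4.78. On the log2(FPKM + 1) scale, which understates the change of low genes, the difference was 2.22 ± 0.316 (SE of the fit across all genes).

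Igtp measured 12.84 and 7.11 FPKM in PBS and 63.61 and 58.25 FPKM in 5-FU. Its mean went from 9.98 ± 4.06 to 60.93 ± 3.79 FPKM, a ratio of 6.11 and a log2 difference of 2.55 ± 0.277 (SE). Igtp was the highest IRG transcript in 5-FU, whereas in PBS the ranges of Igtp and Irgm1 overlapped. Irgm2 measured 5.66 and 2.19 FPKM in PBS and 12.01 and 11.74 FPKM in 5-FU. Its ratio of means, 3.03, was the lowest of the 3 regulators, and its log2 difference was 1.48 ± 0.37 (SE). The gap between its PBS libraries was wide: PBS replicate 1 was 2.58 times PBS replicate 2. Without PBS replicate 1 the Irgm2 log2 difference was 2.01, and without PBS replicate 2 it was 0.952.

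In PBS, replicate 1 was above replicate 2 for all members but Gm4951, and so it was for 57.3% of all tested genes. For Gm12250 this rested on about 2.83 and 0 reads. The ratio of these libraries was 2.01, 2.58 and 1.81 for Irgm1, Irgm2 and Igtp, 2.85 and 1.64 for Tgtp1 and Tgtp2, 1.44 for Iigp1 and 1.05 for Ifi47. Median-ratio scaling would divide PBS replicates 1 and 2 by 1.0537 and 0.9952, a gap of about the size of the Ifi47 ratio. On the log2(FPKM + 1) scale PBS replicate 1 exceeded PBS replicate 2 by 0.91 for Irgm1, 1.06 for Irgm2 and 0.77 for Igtp. Over all tested genes the median absolute gap was 0.271, and gaps at least as wide were seen in 5.14%, 2.87% and 8.37% of them. The added 1 FPKM narrows the gap of low genes on this scale, to 0.11 for Tgtp1, 0.18 for Tgtp2 and 0.25 for Iigp1. Between the 5-FU libraries the median absolute gap over all tested genes was narrower, at 0.0729. The fit assumes the same spread in both groups, so its SE and adjusted p-values carry this limit.

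The effector Ifi47 stood at a low level in PBS and reached the third-highest level of the family in 5-FU. Its 4 values were 1.576 and 1.504 FPKM in PBS and 29.93 and 26.58 FPKM in 5-FU. The ratio of means was 18.3. The groups were far apart relative to the spread within each, with a log2 difference of 3.52 ± 0.133 (SE). This was the widest of the family with 1 FPKM added before the log, but not with 0.1 FPKM added (4.11, against 4.16 for Tgtp2) or by the ratio of means. It ranked 9 from the top among the 11644 genes tested.

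The near-identical effector genes Tgtp1 and Tgtp2 were under 1 FPKM in PBS. Tgtp2 measured 0.428 and 0.262 FPKM in PBS and 7.47 and 7.91 FPKM in 5-FU. Tgtp1 measured 0.128 and 0.045 FPKM in PBS and 2.43 and 2.09 FPKM in 5-FU. Both PBS libraries were below both 5-FU libraries for each copy. From steps in the FPKM values, the Tgtp1 levels correspond to about 17 and 6 reads in PBS and 162 and 138 in 5-FU. The exact Poisson 95% intervals were 0.0747 to 0.205 and 0.0165 to 0.0979 FPKM in PBS, and 2.07 to 2.83 and 1.75 to 2.47 FPKM in 5-FU. They cover counting error only. Because the split of reads between the copies is uncertain, their sum was also taken. It was 0.556 and 0.307 FPKM in PBS and 9.90 and 9.99 FPKM in 5-FU, with 14.7% to 24.5% of it in Tgtp1, and its ratio of means was 23.0. The log2 difference was 1.58 ± 0.133 (SE) for Tgtp1, 2.69 ± 0.141 for Tgtp2 and 2.94 for the sum. With 0.1 FPKM added in place of 1 it was 3.69 for Tgtp1 and 4.16 for Tgtp2.

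Iigp1 and Gm4951 both lie on the plus strand of chromosome 18, at 60376027 to 60392634 and 60212080 to 60247820. Iigp1, an effector that disrupts parasite vacuoles, measured 1.09 and 0.755 FPKM in PBS and 4.15 and 3.45 FPKM in 5-FU. The groups did not overlap, and the ratio of means was 4.13 with a log2 difference of 1.32 ± 0.165 (SE). That difference was the smallest of the tested members with 1 FPKM added, while with 0.1 FPKM added Irgm2 was lower (1.72 against 1.95), as it was by the ratio of means. Gm12250 (Irgb10, which acts on bacterial membranes) measured 0.0537 and 0 FPKM in PBS and 0.586 and 0.808 FPKM in 5-FU. At the M21 length this is about 2.83 and 0 reads in PBS and 15.6 and 21.2 in 5-FU. It was higher in both 5-FU libraries, and no fold is given because so few reads stand behind the PBS values.

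Gm4951 was the exception. It measured 0.466 and 0.563 FPKM in PBS and 0.399 and 0.605 FPKM in 5-FU. The groups overlapped, with 5-FU replicate 1 the lowest and 5-FU replicate 2 the highest of the 4 libraries. About 51 and 62 reads stood behind the PBS values and 22 and 33 behind the 5-FU values. The exact Poisson 95% intervals were 0.347 to 0.613 and 0.432 to 0.722 FPKM in PBS, and 0.25 to 0.605 and 0.416 to 0.85 FPKM in 5-FU. A difference between the groups was not detectable at this depth.

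**Figure D2:**
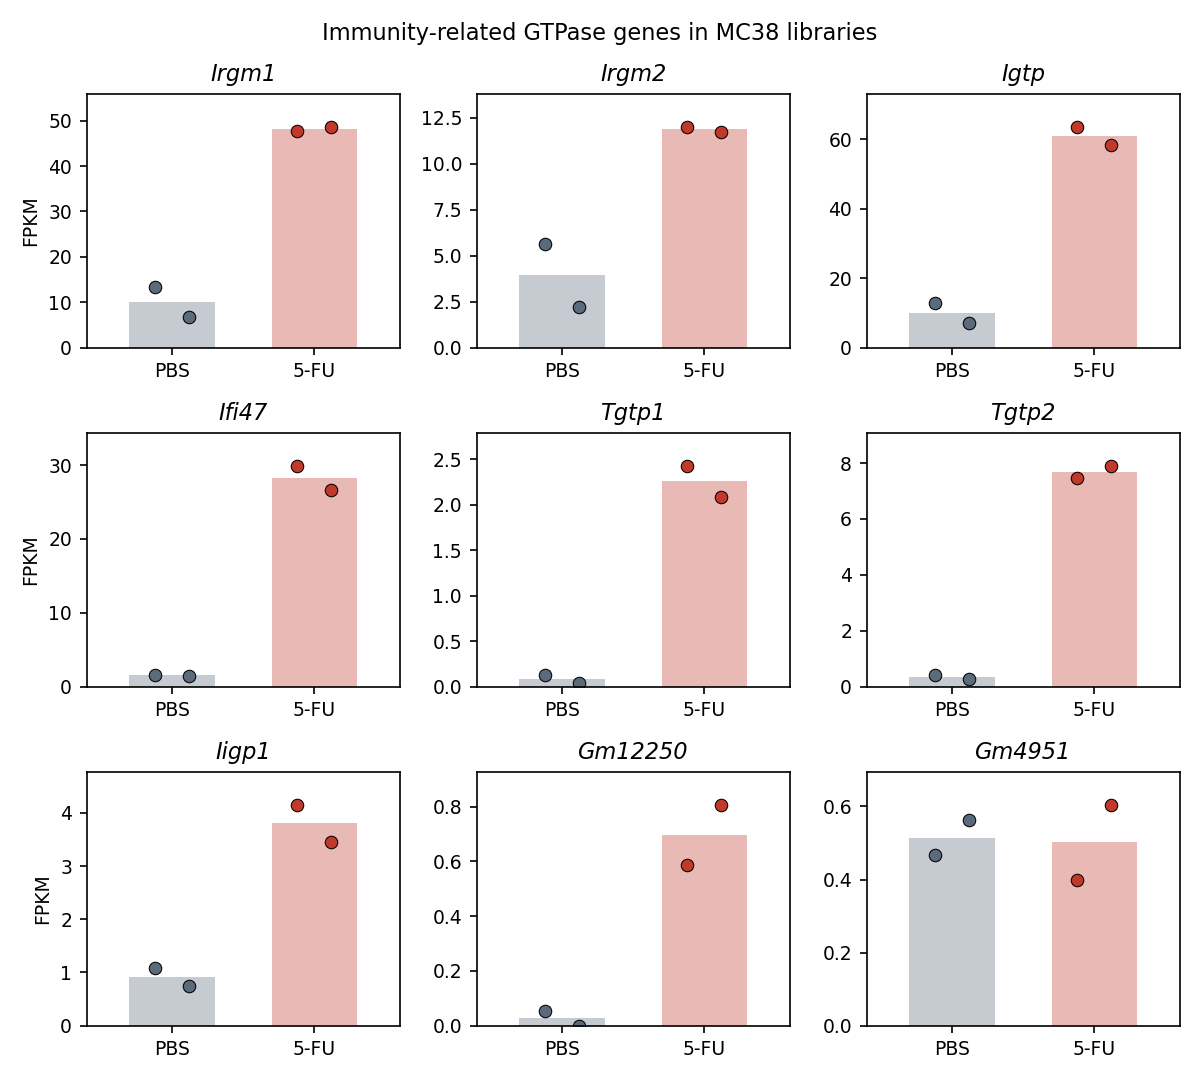
FPKM of the 9 IRG genes in each library (points) with the mean of the 2 libraries per group (bars), each panel on its own linear axis from 0. Both 5-FU points lie above both PBS points for 8 genes, and the groups overlap for Gm4951.

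The groups did not overlap, with 5-FU higher, in 8 of the 9 genes. Among tested genes the same held for all 7 tested members and for 35.9% of all 11644. Genes were tested when at least 2 libraries reached 1 FPKM. Gm12250 and Gm4951 stayed below this level in all 4 libraries and were not tested. Tgtp1 and Tgtp2 passed through the 5-FU libraries alone, so their groups could not overlap. All 7 tested IRG genes were past the threshold (limma, Benjamini-Hochberg adjusted p under 0.05) and higher, against 22.1% of all tested genes higher and 53.3% past it in either direction. Since the genes were picked with this contrast known, nothing is read from these counts. Irgm2 was no longer counted when 5-FU replicate 1 or 2 was left out or with no filter on low values.

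In PBS the mean levels ran Irgm1, Igtp, Irgm2, Ifi47, Iigp1, Gm4951, Tgtp2, Tgtp1 and Gm12250 from high to low. In 5-FU they ran Igtp, Irgm1, Ifi47, Irgm2, Tgtp2, Iigp1, Tgtp1, Gm12250 and Gm4951. Neighbours whose ranges overlapped were Irgm1 and Igtp, and Tgtp1 and Gm12250, in PBS, and Gm12250 and Gm4951 in 5-FU. All other neighbours in either order were separated in both libraries. The places of Tgtp1 and Tgtp2 are uncertain because of their shared sequence.

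The regulators took a smaller part of the family's RNA in both 5-FU libraries than in either PBS library. The 9 genes summed to 35.68 and 19.12 FPKM in PBS and to 168.3 and 160.1 FPKM in 5-FU, a ratio of means of 5.99. Leaving out PBS replicate 1 gave a ratio of 8.58, and leaving out PBS replicate 2 gave 4.60. The regulators summed to 31.95 and 16 FPKM in PBS and 123.3 and 118.7 FPKM in 5-FU. The other 6 genes summed to 3.74 and 3.13 FPKM in PBS and 44.96 and 41.44 FPKM in 5-FU. Regulators thus made up 89.5% and 83.6% of the sum in PBS and 73.3% and 74.1% in 5-FU. Any uncounted reads of Tgtp1 and Tgtp2 would make these shares too high. The regulators' sum was 8.55 and 5.11 times that of the other 6 in PBS and 2.74 and 2.86 times in 5-FU. Igtp held a similar share in every library, 36.0% to 37.8%. Irgm2 went from 15.9% and 11.5% of the sum to 7.14% and 7.34%, and Ifi47 went from 4.42% and 7.86% to 17.8% and 16.6%. An exact two-sided permutation test of such a share in 2 against 2 libraries cannot go below p = 0.333, so none was run. In bulk RNA, more cells with a transcript and more of it per cell cannot be told apart.

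**Figure D3:**
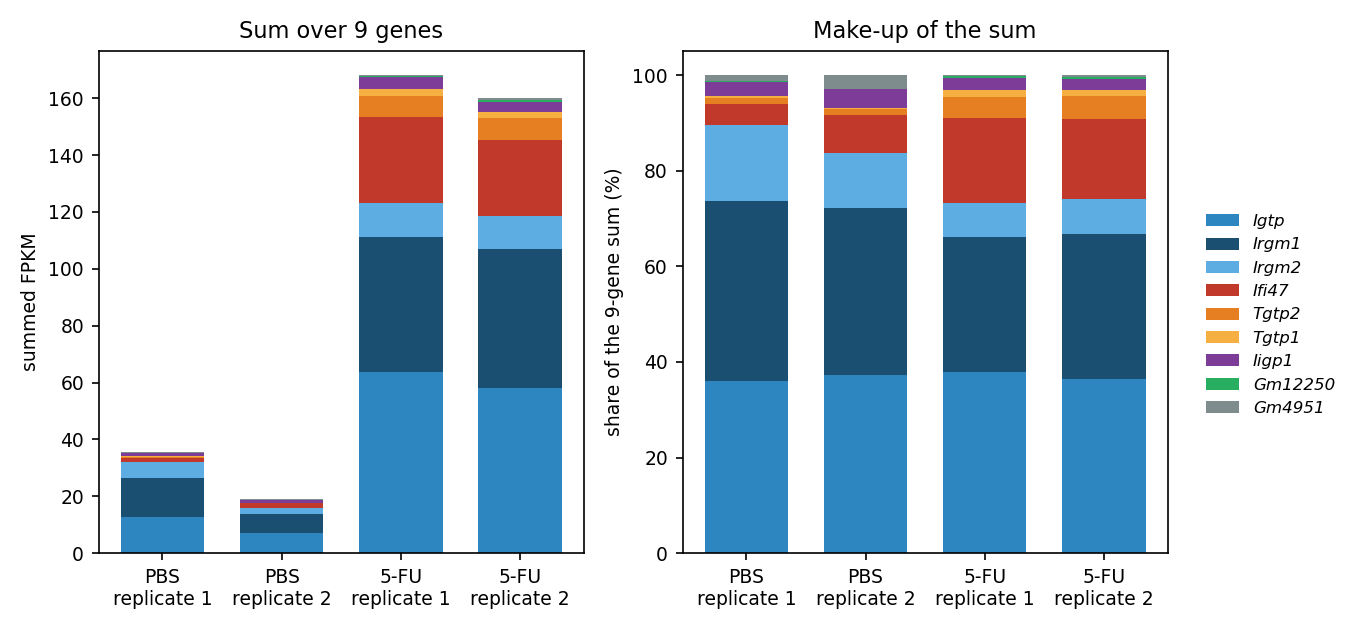
Summed FPKM of the 9 IRG genes in each library (left) and the share of each gene in that sum in percent (right), with the regulators in blue shades. The sum is 35.68 and 19.12 FPKM in PBS and 168.3 and 160.1 FPKM in 5-FU, and the regulators' share is lower in both 5-FU libraries.

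The genes that carry the interferon signal to the IRGs were taken from lists of textbook pathway genes. Ligands were near or at 0. The interferon gamma gene Ifng was listed at 0 in all 4 libraries, as were 11 of the 16 ligand genes in the table. The interferon beta gene Ifnb1 had no reads in PBS (listed at 0) and about 0.97 and 5.84 reads in the 5-FU libraries. None of the 16 reached 1 FPKM in any library.

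Receptor and signalling genes were expressed, and 9 of the 17 tested rose, 2 fell and 6 did not pass. Their median log2 difference was 0.545, against -0.0971 over all tested genes, of which 22.1% rose and 31.2% fell. Ifngr1, which encodes the ligand-binding chain of the interferon gamma receptor, was at 11.55 and 10.97 FPKM in PBS and 22.18 and 19.88 FPKM in 5-FU (adjusted p = 0.00675). The second chain, Ifngr2, rose by 0.55 log2 (adjusted p = 0.0389). Irf1, which encodes an activator of interferon-inducible promoters, rose 1.51-fold (adjusted p = 0.0166), and Irf9 rose 1.56-fold (adjusted p = 0.036). The widest change of the list was in Irf2, which encodes an antagonist of IRF1. It measured 12.71 and 13.59 FPKM in PBS and 45.79 and 45.06 FPKM in 5-FU (3.45-fold, adjusted p = 0.0027). Usp18, which encodes an inhibitor of type I interferon receptor signalling, rose 2.06-fold (adjusted p = 0.00508). The kinase genes Tyk2 and Jak1 fell by 0.90 and 0.68 log2 (adjusted p = 0.00803 and 0.0333), and Jak1 did not pass with median-ratio scaling (0.0526). With no filter on low values 6 genes were higher and 1 lower, and Ifngr2, Irf9 and Jak1 did not pass (0.084, 0.0793 and 0.0935). With either 5-FU library left out, 2 signalling genes were higher and 0 lower, and 5 were lower when PBS replicate 1 was left out. Ifngr1, Ifngr2, Irf1, Irf9, Tyk2 and Jak1 missed the threshold when 5-FU replicate 1 or 2 was left out, with adjusted p from 0.079 to 0.327 without 5-FU replicate 1 and from 0.0723 to 0.265 without 5-FU replicate 2.

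The guanylate-binding proteins are larger interferon-inducible GTPases that act beside the IRGs on vacuoles. Of 7 tested genes of this family and the antiviral Mx GTPases, 6 rose, 0 fell and Gbp7 did not pass (adjusted p = 0.306), beside 22.1% higher and 31.2% lower over all tested genes. Of the 6, Gbp4, Gbp9 and Mx1 passed the filter through the 5-FU libraries alone, so they had to be higher to be tested, and the count is no support for the list. Gbp3 rose from 7.89 ± 0.158 to 38.62 ± 2.36 FPKM and Gbp2 from 7.25 ± 1.57 to 33.37 ± 2.60 FPKM, and Mx2 rose 5.81-fold (adjusted p = 0.0027, 0.00304 and 0.00285). With 5-FU replicate 1 or 2 left out, Gbp4, Gbp9 and Mx1 could not be tested. The log2 differences of Gbp3, Gbp2 and Mx2 were 2.093, 1.992 and 1.873 without 5-FU replicate 1, and 2.215, 2.147 and 1.965 without replicate 2. An ISRE-type match was present in 5 of the 5 RefSeq promoter windows found for this list and a GAS match in 2. In the 15 windows of the receptor and signalling genes these numbers were 3 and 6, and in the 16 windows of other interferon gamma targets 2 and 2. The 19 windows of ligand genes held an ISRE-type match in 11 and a GAS match in 10. Only 16 ligand genes had FPKM values, all at or near 0, so not every window has a level beside it. Of 2 other IRG family genes that could be tested, Gm4841 rose from 0.0850 ± 0.0364 to 3.13 ± 0.358 FPKM (adjusted p = 0.0027) . Irgq, a divergent family member, measured 3.37 and 1.52 FPKM in PBS and 0.847 and 0.784 FPKM in 5-FU (adjusted p = 0.0581). Irgq passed the filter through the PBS libraries alone, so it had to be lower to be tested. With 0.1 FPKM added, or with the replicate number as a block, it was past the threshold as lower. Gm4841 passed the filter through the 5-FU libraries alone and was not tested when one of them was left out.

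Other interferon gamma targets were mixed. Of 16 tested, 8 rose, 1 fell and 7 did not pass, with a median log2 difference of 0.411, beside 22.1% higher, 31.2% lower and a median of -0.0971 over all tested genes. With no filter on low values 5 were higher. The PD-L1 gene Cd274 rose 8.11-fold, the DNA sensor gene Aim2 2.16-fold and the proteasome activator gene Psme2 1.75-fold (adjusted p = 0.0027, 0.00531 and 0.00592). Nos2, which encodes inducible nitric oxide synthase, fell from 42.89 ± 24.2 to 4.42 ± 0.555 FPKM (adjusted p = 0.00652). Ciita, the master regulator of MHC class II genes, was at or under 0.032 FPKM in every library and was not tested. The list held 3 and 2 genes higher without 5-FU replicates 1 and 2, 13 higher and 2 lower without PBS replicate 2, and 3 lower without PBS replicate 1. Psme2 missed the threshold without 5-FU replicate 1 or 2 (0.0974 and 0.0668), and Aim2 without 5-FU replicate 2 (0.0559).

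The ATG8 conjugation machinery, on which IRG loading onto vacuoles depends, held genes that rose and genes that fell. Of 15 genes listed for this machinery and for vacuole targeting, all tested, 5 rose, 2 fell and 8 did not pass. Their median log2 difference was 0.339, beside the same background of 22.1% higher and 31.2% lower. Sqstm1, Trim21 and Traf6 were on the list for vacuole targeting, and Trim21 was one of the 5 (log2 difference 1.62, adjusted p = 0.0148). Testing without the filter on low values left 2 higher and 1 lower, and Gabarap and Atg10 did not pass (adjusted p = 0.057 and 0.0826). Genes of ATG8 proteins themselves were among those that rose. Map1lc3b went from 17.47 ± 3.75 to 41.41 ± 0.575 FPKM, Gabarap from 77.57 ± 20.9 to 159.7 ± 0.444 FPKM, and Gabarapl2 from 16.71 ± 1.31 to 27.13 ± 0.0126 FPKM (adjusted p = 0.00645, 0.0141 and 0.0104). Gabarapl1 measured 17.87 and 48.36 FPKM in PBS and 67.90 and 73.44 FPKM in 5-FU (adjusted p = 0.0828). The conjugating enzyme genes Atg3 and Atg10 fell. Atg3 went from 17.32 ± 0.270 to 7.58 ± 0.464 FPKM and Atg10 from 4.86 ± 2.69 to 0.884 ± 0.142 FPKM (adjusted p = 0.00419 and 0.0202). Atg10 passed the filter through the PBS libraries alone, so it had to be lower to be tested, and it was not tested with a PBS library left out. Atg5, required for the conjugation, measured 20.24 ± 2.91 and 25.75 ± 0.237 FPKM (adjusted p = 0.0996). With either 5-FU library left out, fewer genes of this list passed in each direction. Leaving out PBS replicate 2 gave 9 higher, and leaving out PBS replicate 1 gave 4 lower. Gabarap and Gabarapl2 missed the threshold without 5-FU replicate 1 (0.0524 and 0.148) or 2 (0.0547 and 0.151), Atg3 without 5-FU replicate 1 (0.0519) and Atg10 without 5-FU replicate 2 (0.0538).

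**Figure D4:**
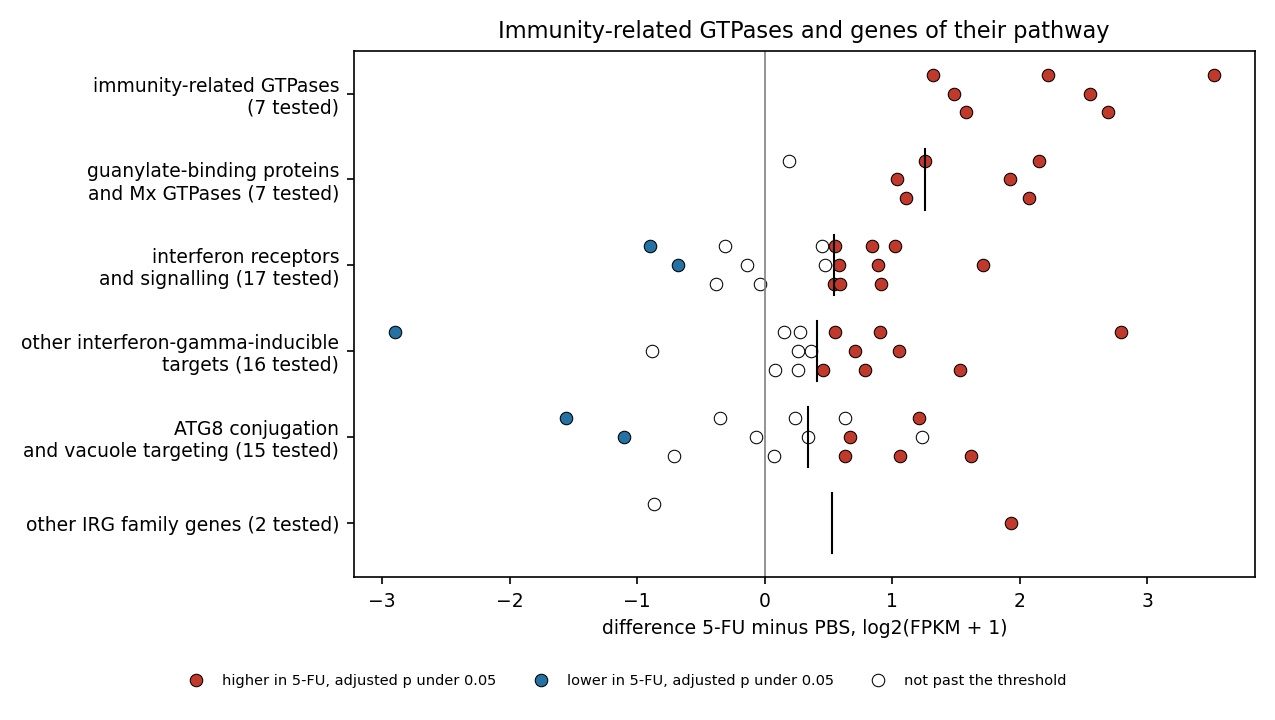
Difference of 5-FU minus PBS on the log2(FPKM + 1) scale for each tested IRG gene and each tested gene of 5 pathway lists. Filled points are past an adjusted p of 0.05, and the vertical tick marks the median of each pathway list. The 7 tested IRG genes lie between 1.32 and 3.52.

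Genes whose pattern was most like that of the family were found by the distance between centred log2(FPKM + 1) values over the 4 libraries, among 8062 candidates. The mean pattern of the tested IRG genes was -0.86 and -1.34 in PBS replicates 1 and 2 and 1.14 and 1.06 in 5-FU. The 5 nearest genes were Fhdc1 (distance 0.08), Zfp35 (0.105), Gbp2 (0.149), Tmem86b (0.156) and Etaa1 (0.157). In PBS, Fhdc1 was at 0.557 and 0.103 FPKM and Tmem86b at 0.773 and 0.0985 FPKM. These 2 genes passed the filter through the 5-FU libraries alone. Zfp35 went from 7.40 ± 1.98 to 36.07 ± 1.04 FPKM and Etaa1 from 9.47 ± 1.82 to 45.93 ± 2.35 FPKM. With 4 libraries in 2 groups, likeness mostly reflects a similar difference between the groups.

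Across the series, estimated depth was 20.6 to 41.6 M reads per library, at 41.3 and 41.6 M in PBS and 20.8 and 20.6 M in 5-FU. Marker genes were checked because macrophages also express IRGs. Of 18 leukocyte and macrophage markers, 15 were under 1 FPKM in all libraries, among them Ptprc (at most 0.0342 FPKM) and Adgre1 (at most 0.0148 FPKM), and Cd3e and Ms4a1 were listed at 0 throughout. The list summed to 21.52 and 32.64 FPKM in PBS and 32.31 and 29.28 FPKM in 5-FU, mostly from Cd68, Cd14 and Lyz2, none of which passed (adjusted p = 0.38, 0.718 and 0.751). With PBS replicate 2 left out, Cd68 was higher by 1.30 log2 and Cd14 differed by -0.29 log2. The part of such markers in the IRG values was not tested. The label calls the line colon cancer, yet all 13 epithelial markers, Epcam and Cdh1 among them, were under 1 FPKM in every library. Of 10 tested mesenchymal markers 0 rose and 4 fell, Snai2, Twist1, Fn1 and Pdgfrb. Over all tested genes 22.1% rose and 31.2% fell, so nothing is read from this count. Pdgfrb passed the filter through PBS alone, so it had to be lower to be tested. With no filter on low values 2 markers were lower, and fewer than 4 were with 5-FU replicate 1 or 2 left out. Vim was abundant, at 889.7 to 1068.9 FPKM.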

How the data were processed

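The data are 1 table from RNA sequencing of 4 MC38 libraries, grouped by the treatment label into PBS and 5-FU. The authors deposited FPKM values for 36445 genes. STAR 2.4.1a, Picard 2.9.0 and build GRCm38 are listed, without roles, in the submitters' processing notes. The counter, annotation and strand setting behind the values: not given in the sources used here. GENCODE release M21 held 36295 of the gene IDs.

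A linear model per gene was fitted to log2(FPKM + 1) by limma 3.58.1 in R 4.3.3, with eBayes moderation along the mean level. The 11644 genes that reached 1 FPKM in 2 or more libraries entered. P-values are two-sided and Benjamini-Hochberg adjusted over all of these, with a threshold of 0.05. The fit was tested on simulated data. Reads were estimated from steps in FPKM times M21 exonic length; among values under 100 reads, 63.1% to 65.1% lay within 0.02 of a whole number. Coding sequences were aligned with Biopython 1.88. Promoters come from RefSeq.

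The members and gene lists were chosen with earlier results of these data known. Named genes are the members, up to 3 per list and direction with the smallest p, 2 by smallest p for lists where no gene passed, fixed genes (Ifng, Ifnb1, Ifngr1, Ifngr2, Irf1, Irf9, Atg5 and Gbp2) and the 5 nearest patterns; a gene that the rule names is not reported here. Others (Gbp7, Irgq, Gm12185, Ciita, Gabarapl1, Sqstm1, Trim21, Traf6, Pdgfrb, Vim and single markers) were chosen after their values were seen. Alternatives were a pseudocount of 0.1, no filter on low values, median-ratio scaling, no intensity trend, the replicate number as a block, summed Tgtp1 and Tgtp2, and each library left out in turn.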

Additional observations from a re-analysis of the deposited data

How the results depend on the processing

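Under the alternatives none of 61 values of the IRG genes changed direction, and 3 moved below the threshold, all of Irgm2. Those values came from the 7 tested members, without Gm12250 and Gm4951, and the fit of summed Tgtp1 and Tgtp2 counted under both. Tgtp1 and Tgtp2 could not be fitted without a 5-FU library, since they then missed the filter. They passed it through the 5-FU libraries alone, so wherever the filter applied they had to be higher. The members were picked with this contrast known, so the tally of 61 values is a description. With no filter on low values Gm12250 passed and Gm4951 did not. Of all tested genes 2578 were higher and 3628 lower; leaving out 1 library gave 481 to 4428 higher and 1311 to 4624 lower, where the lone library left in a group borrows the other group's spread. The 57 tested pathway genes held 29 higher and 5 lower, with 9 to 40 higher and 2 to 12 lower when 1 library was left out. With no filter on low values 22 pathway genes were higher and 3 lower, and 8 were lower with the replicate number as a block. Replicate numbers did not pair the libraries (correlation of deviations -0.01), so that block shares only a number; with it 2484 genes were higher and 3553 lower. Cd68 and Cd14, not past the threshold, reversed to -0.17 and 0.12 log2 without PBS replicate 1, and stood at 1.30 and -0.29 without PBS replicate 2. The cause of these changes was not tested. Low reads limit Gm12250, Gm4951 and Tgtp1.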

Other observations

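Other IRG family genes were mostly too low to test. The 9 in the table apart from the members included 7 that stayed under 1 FPKM in every library, and Gm12187 was listed at 0 in all 4. Gm12185, whose promoter window shares the arrangement of motifs seen in Igtp, Irgm2, Tgtp1 and Tgtp2, measured 0.0217 and 0 FPKM in PBS and 0.224 and 0.208 FPKM in 5-FU, about 5 and 0 reads against 26 and 24. Part of its sequence is shared with Tgtp1 and Tgtp2, so these reads may not be its own. 9930111J21Rik2 stood at about 14 and 8 reads in PBS and 62 and 34 in 5-FU, although the PBS libraries were the deeper ones. Gm4841 on chromosome 18 had about 13 and 7 reads in PBS and 170 and 198 in 5-FU. Also on that chromosome, Iigp1 went from a mean of 0.92 to 3.80 FPKM and Gm4951 stayed at 0.515 and 0.502 FPKM. F830016B08Rik, another family gene there, had about 1 and 1 reads in PBS and 4 and 3 in 5-FU. These genes were described after their values were seen, and none of them was tested except Gm4841 and Iigp1.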
